A study of Mus musculus with 35 samples.

Results

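The nuclear-encoded genes of the mitochondrial respiratory chain were followed across RNA sequencing libraries of CD8 T cells taken from the brain or spleen of mice. The members were taken by gene symbol: names beginning with Nduf followed by a, b, c, s or v and a number (complex I), Sdha to Sdhd (complex II), names beginning with Uqcr (complex III), names beginning with Cox4 to Cox8 (complex IV) and names beginning with Atp5 (complex V). A name containing -ps, used for pseudogenes, was left out, which removed 1 gene. The rule found 85 of the 38924 genes in the files, 37 of complex I, 4 of complex II, 8 of complex III, 18 of complex IV and 18 of complex V. It also took in names that are not chain subunits. Atp5sl is Dmac2 in the GENCODE annotation and Atp5l2 is annotated there as a processed pseudogene. It left out Ndufab1, an acyl carrier protein that is also a complex I subunit, and the assembly factors.

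The cells came from C57BL/6 mice and were sorted by flow cytometry as positive for CD3e and CD8, high for CD44 and low for CD62L, the surface of antigen-experienced effector memory T cells. They were kept without stimulation or given PMA and ionomycin for 2 h, which activate T cells from inside the cell, the first as a phorbol ester and the second by letting in calcium. The unstimulated brain groups were young males (n = 5, replicates 2 to 6), aged males (n = 6, replicates 7 to 12) and aged females (n = 5, replicates 13 to 17). The stimulated brain groups were aged males (n = 4, replicates 19 to 22) and aged females (n = 5, replicates 23 to 27). Both spleen groups were aged males, unstimulated (n = 5, replicates 30 to 34) and stimulated (n = 5, replicates 36 to 40). Age beyond young or aged is not given in the sources used here, nor is whether replicates were separate animals. The p-values therefore measure only how these samples spread, and that spread may be technical. All spleen titles and those of female brain replicates 26 and 27 are written without hyphens and the others with them, so tissue and title format cannot be told apart. Titles also end in an S number, whose meaning the labels do not give. It does not repeat within the titles without hyphens or within unstimulated male brain, young and aged. Nor does it repeat within the other brain titles with hyphens, unstimulated female, stimulated male and stimulated female. The sex comparison and male brain stimulation each lie across such sets, which cannot be told apart from sex or stimulation there.

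The respiratory chain passes electrons from NADH through complex I, or from succinate through complex II, to complex III and then to oxygen at complex IV. Complexes I, III and IV pump protons across the inner mitochondrial membrane, and complex V, the ATP synthase, uses that gradient to make ATP. The mitochondrial genome encodes a few core subunits of every complex except complex II, and the nucleus encodes the others, which are imported. In T cells the chain supports the long-lived memory state, and mitochondrial activity also rises with activation, alongside glycolysis.

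The libraries differed widely in depth and in how many genes they held. Library totals were 9.0 to 14.7 M counts in unstimulated spleen, 6.75 to 11.2 M in stimulated spleen and 6.65 to 24.97 M in the unstimulated brain groups. They were 2.22 to 9.20 M in stimulated female brain and 1.16 to 6.39 M in stimulated male brain. Mitochondrially encoded RNA took 8.28 to 13.3% of counts in the unstimulated libraries, 14.8 to 20.8% in stimulated spleen and 38.5 to 69.7% in stimulated brain. The defining markers of CD8 T cells (Cd3d, Cd3e, Cd3g, Cd8a, Cd8b1 and Cd2) had counts in every group, 6 of 6. Their summed level ran from 108 to 439 library-scaled counts (CPM) in stimulated male brain. It was 2784 to 4584 CPM in unstimulated aged male brain, without overlap. Of 5 genes that check the sex label (Ddx3y, Uty, Kdm5d, Eif2s3y and Xist), stimulated male brain replicates 20, 21 and 22 had 0 counts of all, so their label could not be checked. Replicate 27 of stimulated female brain lacked Xist counts too. Counts of members called that rest on the 3 male libraries are therefore also given with replicate 19 alone.

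Most members were detected in spleen and few in stimulated brain, as were genes in all. A member with at least 1 count was taken as detected. Of 85 members, 76 to 78 were detected in each unstimulated spleen library (median 77) and 75 to 76 in each stimulated one (median 76). In unstimulated brain the lowest, median and highest numbers were 66, 70 and 72 in young males, 62, 72.5 and 74 in aged males and 45, 67 and 76 in aged females. In stimulated brain they were 23, 29 and 39 in females and 10, 14 and 22 in males, so that the stimulated brain libraries lay under all others. After every library was thinned to 0.376 M nuclear counts the group medians were 73.6 and 69.5 in unstimulated and stimulated spleen, 60.6, 60.1 and 60.6 in unstimulated brain of young males, aged males and aged females, and 25.6 and 12.7 in stimulated female and male brain. The medians of spleen, unstimulated brain and stimulated brain thus stood in the same order at equal depth. All genes did likewise, with thinned medians of 10890 and 9880 in unstimulated and stimulated spleen, 7278 to 8139 in the unstimulated brain groups and 5266 and 3109 in stimulated female and male brain. In bulk samples, fewer cells of a type and less RNA per cell cannot be told apart.

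**Figure D1:**
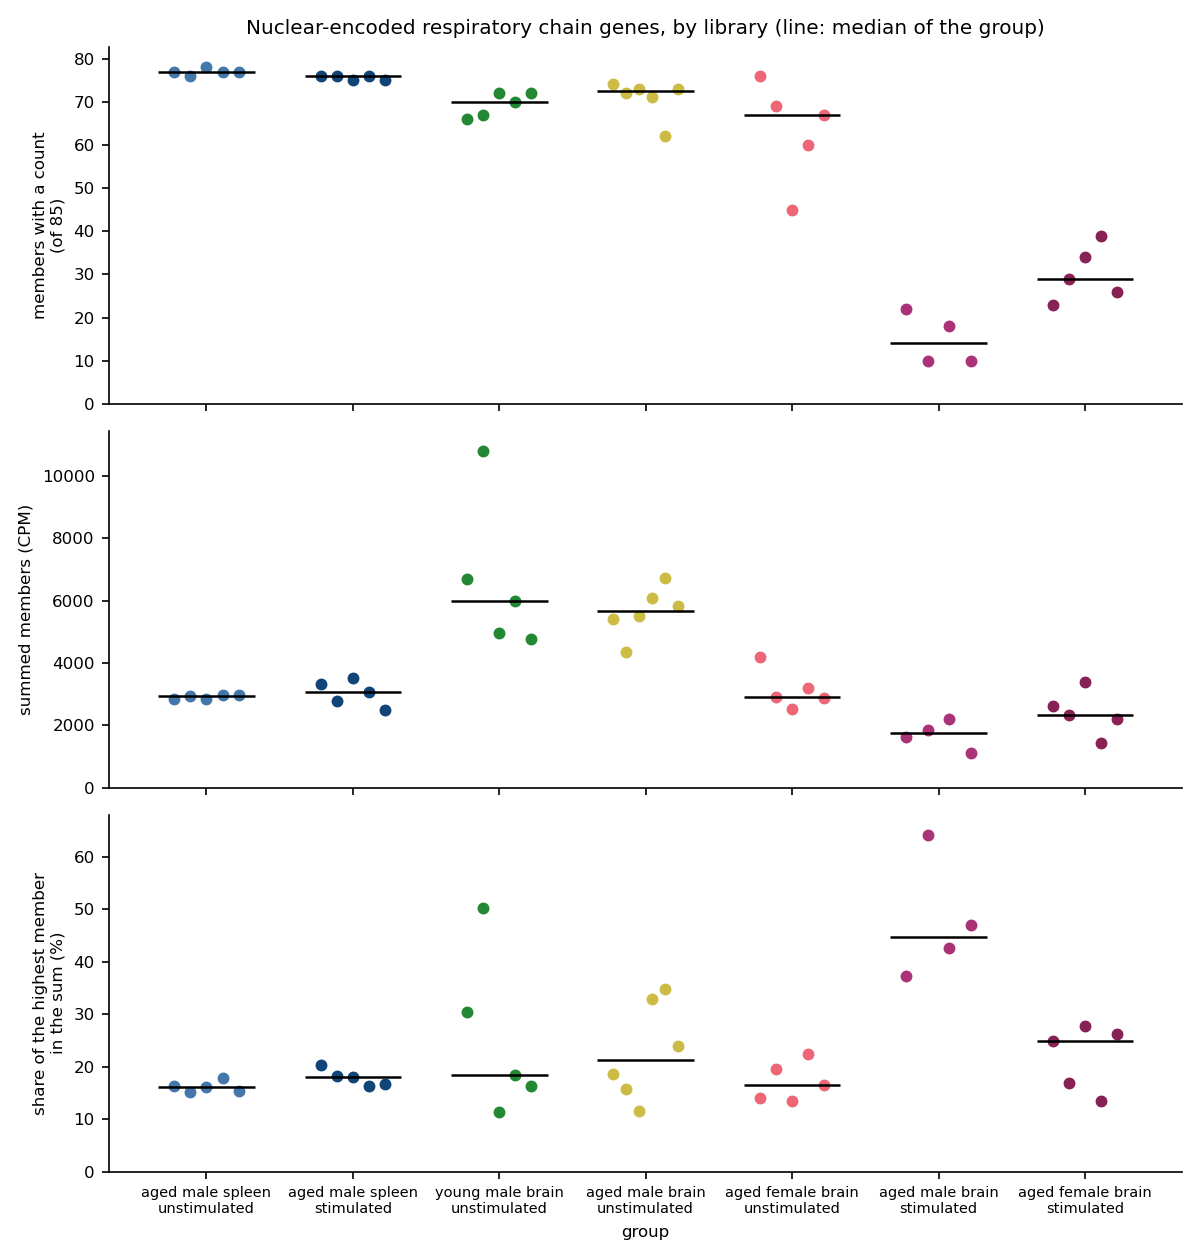
Members with at least 1 count (of 85), their summed level in CPM and the share of that sum held by the highest member, for each library by group; each point is 1 library. Stimulated brain libraries hold 10 to 39 members, spleen libraries 75 to 78, and in stimulated male brain 1 member holds 37.2 to 64.2% of the sum.

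Across all 35 libraries 80 members had a count somewhere. The members without a count anywhere were Cox4i2, Cox7a1, Cox7b2, Cox8b and Cox8c, alternative subunits of complex IV known from lung, muscle or testis. Atp5a1, which encodes the alpha subunit of the ATP synthase, was the 1 member with a count in all 35. In stimulated male brain 44 members had no count in any library, and only Atp5a1 and Cox6c, a small complex IV subunit, had one in all 4. In stimulated female brain 26 members had no count in any library. There, Atp5a1, Atp5b (the catalytic beta subunit), Atp5h (subunit d of the stalk), Cox4i1 (the common form of subunit 4) and Uqcrh (the complex III hinge protein) were among those with counts in all 5.

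The summed level of the members, in CPM, was steadier in spleen than in brain. It was 2837 to 2972 in unstimulated spleen (median 2928) and 2497 to 3530 in stimulated spleen (median 3061). In unstimulated brain the lowest, median and highest sums were 4756, 5992 and 10792 in young males, 4364, 5655 and 6721 in aged males and 2531, 2905 and 4201 in aged females. All unstimulated male brain libraries lay above the unstimulated spleen range on this scale, while the female libraries overlapped it. The highest young library, replicate 3, had 50.2% of its sum in Atp5h alone. Stimulated brain sums were 1446, 2323 and 3386 in females and 1101, 1749 and 2204 in males. Single genes held much of those in males: Uqcrc2, a core protein of complex III, 64.2% in replicate 20, Atp5h 42.7% in replicate 21, Atp5a1 46.9% in replicate 22 and Atp5b 37.2% in replicate 19. CPM values use scaling factors by the trimmed mean of M-values (TMM) over all 35 libraries. As a plain share of nuclear-encoded counts, without those factors, the members had medians of 0.547% in unstimulated and 0.402% in stimulated spleen. The medians were 0.606%, 0.626% and 0.456% in unstimulated brain of young males, aged males and aged females, and 0.326% and 0.322% in stimulated female and male brain.

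Spread between replicates set what could be compared. The median coefficient of variation of the members was 16.4% in unstimulated spleen and 32.8% in stimulated spleen, below the 24.7% and 38.2% of all genes in the same groups. It was 110%, 97.5% and 90.4% in unstimulated brain of young males, aged males and aged females. It reached 183% and 200% in stimulated female and male brain, where all these genes had 169% and 192%. Only 58 and 40 members entered there, those with a count in the group. In stimulated male brain 200% is the highest possible value, that of a gene counted in a single library.

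**Figure D2:**
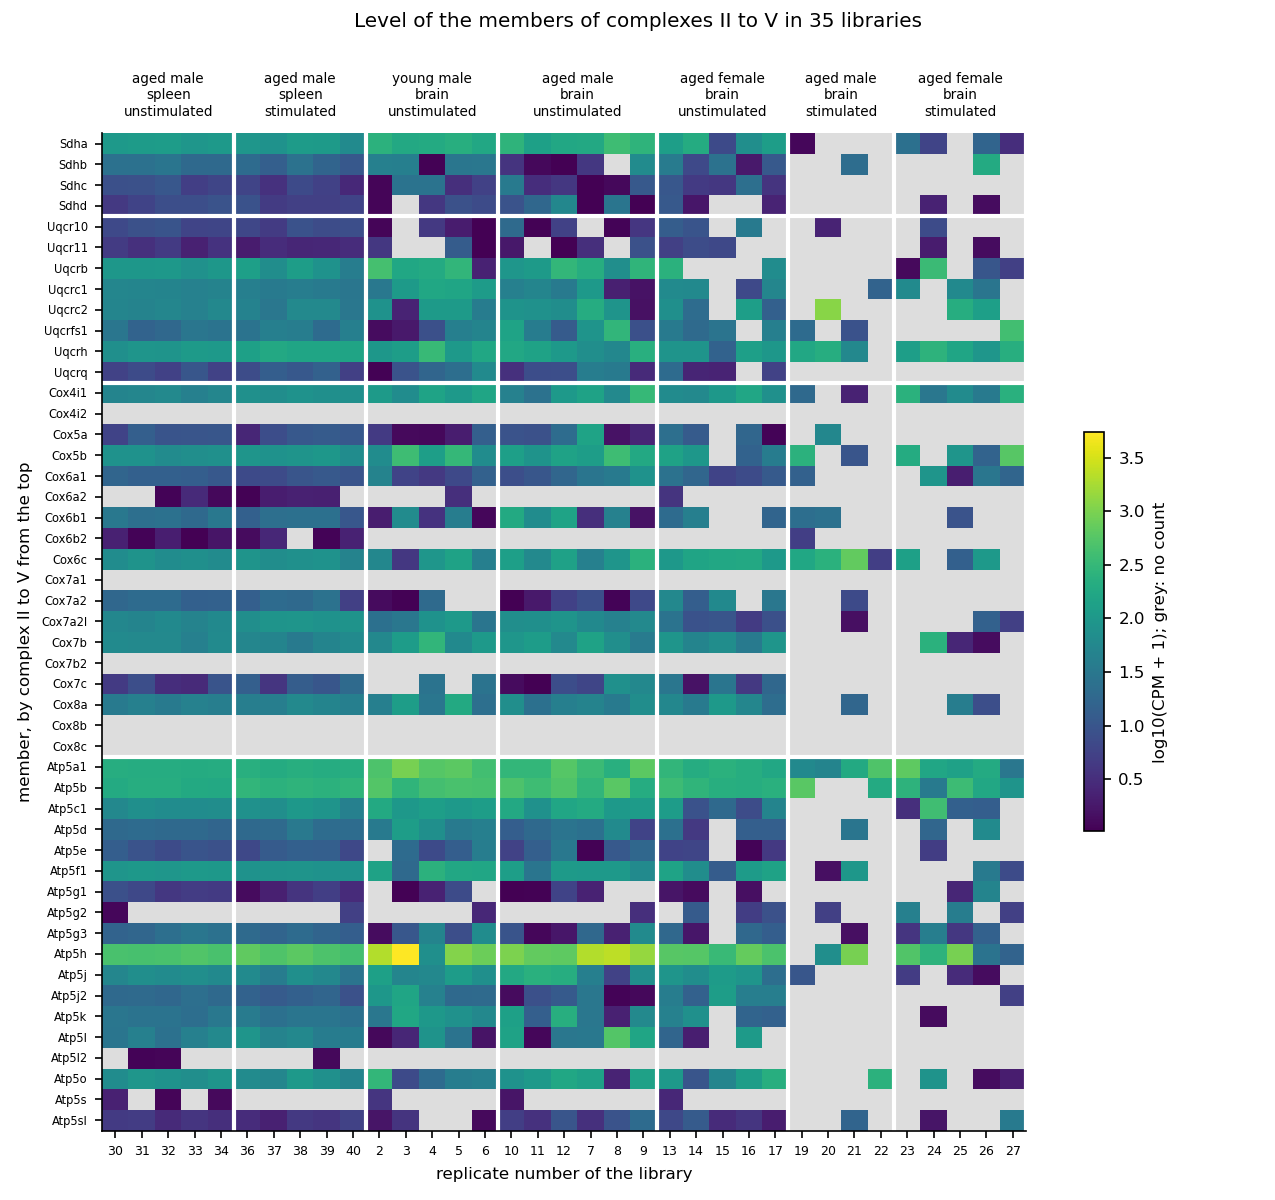
Level of each member of complexes II to V in each library as log10(CPM + 1), ordered by complex and libraries by group; grey marks no count. Spleen columns are even from library to library, unstimulated brain columns vary, and stimulated brain columns are mostly grey.

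Levels of different genes were compared on the length-adjusted TPM scale, in unstimulated spleen (mean ± SD, n = 5). The highest member of complex I was Ndufa6, an accessory subunit, at 98.0 ± 8.37 TPM. In complex II, the succinate dehydrogenase, the flavoprotein gene Sdha stood at 134 ± 13.8 TPM and the iron-sulfur gene Sdhb at 32.05 ± 6.49 TPM. Its membrane anchor genes were lower, Sdhc at 8.11 ± 2.99 TPM and Sdhd at 7.38 ± 2.24 TPM, which overlap. In complex III, Uqcrb, a small subunit near the quinone site, had 344 ± 30 TPM and Uqcrh 333 ± 44.6 TPM, values within 1 SD of each other. In complex IV, Cox6c at 277 ± 35.6 TPM and Cox5b at 253 ± 28.5 TPM were also within 1 SD. Atp5h led complex V and all members at 1790 ± 167 TPM.

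Of the paired complex IV and complex V isoforms, the forms known from most tissues carried the counts. Cox4i1 was at 120 ± 14.3 TPM in unstimulated and 105 ± 15.8 TPM in stimulated spleen, with Cox4i2 at 0. Cox6a1 was at 43.9 ± 8.78 TPM and the muscle form Cox6a2 at 1.23 ± 2.23 TPM. Cox6b1 was at 102 ± 22.3 TPM and the testis form Cox6b2 at 3.32 ± 2.92 TPM. Cox7a2l, which takes part in supercomplex assembly, was at 80.3 ± 7.92 TPM and Cox7a2 at 39.6 ± 7.74 TPM. Cox7b was at 159 ± 33.7 TPM and Cox8a at 138 ± 14.9 TPM, with their alternatives at 0. Ndufa4, named for complex I and also assigned to complex IV, was at 86.6 ± 14.9 TPM, and its relative Ndufa4l2 at 0.014 TPM on average. The 3 genes for the ATP synthase c subunit differed, with Atp5g3 at 51.2 ± 12.7 TPM, Atp5g1 at 8.81 ± 4.99 TPM and Atp5g2 at 0.192 TPM on average. Atp5g2 reached 20.5 ± 21.8 TPM in unstimulated female brain, an SD as large as the mean. The similarity of these copies, and of processed pseudogenes, makes the split of reads among them uncertain.

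The effect of stimulation was measured with most precision in spleen. Among 75 members tested with edgeR's quasi-likelihood test, 5 rose and 1 fell at an adjusted p under 0.05 on the TMM scale. Of all 11107 genes tested, 12.6% were called higher and 6.12% lower, so the members' 5 and 1 of 75 were not above that background. The members' median log2 fold change was -0.22, against -0.07 for all genes, and 53 of 75 members were below 0. Above 0 were 29.3% of the members and 45.7% of all genes. The genes that rose were Uqcrh of complex III, Cox7a2l and Cox4i1 of complex IV, Atp5b of complex V and Ndufa6 of complex I. Uqcrc1, a core protein of complex III, fell. The direction of the rises depended on how libraries were scaled, as given below the values.

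The promoters of 5 of these 6 genes are shown, and that of Atp5h, the member called between unstimulated tissues below. These genes did not all change together, as Uqcrc1 fell and Atp5h was not called in spleen stimulation. For Atp5h the bases checked after the start were found in no annotated transcript of the gene, so its start is uncertain. They are RefSeq sequences on GRCm38.p6, 5′ to 3′ on the gene's strand, and Cox4i1 is named only. Ndufa6, Uqcrh, Cox7a2l and Atp5b are shown by bases before the start that no annotated exon covers. Uqcrc1 and Atp5h are shown by a site of 30 bases, of which 30 and 23 lie in an annotated exon. Capitals mark a match on either strand to the NRF1 motif GCGCATGC or the ETS motif CCGGAAG, the sites of NRF1 and of GABP-like factors.
Ndufa6 (chr15:82354323-82354491, minus strand, NRF1 match): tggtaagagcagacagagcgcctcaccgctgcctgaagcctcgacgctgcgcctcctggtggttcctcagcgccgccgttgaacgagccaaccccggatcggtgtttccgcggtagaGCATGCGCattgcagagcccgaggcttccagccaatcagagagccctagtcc
Uqcrc1 (chr9:108936668-108936697, plus strand, NRF1 match on both strands, after the start site): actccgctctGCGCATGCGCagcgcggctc
Uqcrh (chr4:116075072-116075268, minus strand, ETS match): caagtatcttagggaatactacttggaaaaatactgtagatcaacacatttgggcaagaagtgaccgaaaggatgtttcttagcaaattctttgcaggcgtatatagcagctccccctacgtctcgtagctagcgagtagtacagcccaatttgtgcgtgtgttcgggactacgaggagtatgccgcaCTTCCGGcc
Cox7a2l (chr17:83514334-83514533, minus strand, no match): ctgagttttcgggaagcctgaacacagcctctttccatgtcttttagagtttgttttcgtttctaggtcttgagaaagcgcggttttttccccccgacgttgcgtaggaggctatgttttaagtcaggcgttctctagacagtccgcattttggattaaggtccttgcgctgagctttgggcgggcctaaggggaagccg
Atp5b (chr10:128083107-128083272, plus strand, no match): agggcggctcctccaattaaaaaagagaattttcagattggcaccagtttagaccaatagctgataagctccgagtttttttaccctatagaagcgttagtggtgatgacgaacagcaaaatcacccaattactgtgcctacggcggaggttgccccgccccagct
Atp5h (chr11:115419940-115419969, minus strand, ETS match): ccaaggagagaaCTTCCGGcaactctcttc
These sequences had no motif in common. Whether genes that change together share motifs was not tested. In windows from 250 bases before to 50 after the start, found for 67 of the 85 members, 10 members (14.9%) held GCGCATGC, 16 (23.9%) held CCGGAAG and 10 (14.9%) held the YY1 motif AAGATGGC, and 30 (44.8%) held at least 1. Of 21263 such windows of protein-coding genes, counted by window and not by gene, 3.52%, 11.6%, 3.05% and 16.7% did. Counted by window, the members had 10, 16, 11 and 31 of 73. The motifs were searched on both strands, and the last 3 letters of CCGGAAG are also the first 3 of AAGATGGC, so matches to these can overlap. A match is a description of the letters and says nothing of binding in these cells.

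Uqcrh (chromosome 4, 116066965 to 116075071, GRCm38, protein-coding) had 74.0, 90.4, 85.1, 109 and 106 CPM in unstimulated spleen replicates 30 to 34. In stimulated replicates 36 to 40 it had 133, 179, 161, 156 and 153 CPM. Every stimulated library lay above every unstimulated one on this scale. The means were 92.8 ± 14.5 and 156 ± 16.7 CPM, and the log2 fold change was 0.72 with an SE of 0.14 (adjusted p = 0.0025).

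Cox7a2l (chromosome 17, 83501918 to 83517330) had 53.5, 49.0, 58.5, 47.0 and 58.8 CPM unstimulated and 71.0, 84.95, 87.9, 81.6 and 83.1 CPM stimulated. Its means of 53.4 ± 5.39 and 81.7 ± 6.44 CPM gave a log2 fold change of 0.58 ± 0.12 (adjusted p = 0.0055). The groups did not overlap. Cox4i1 (chromosome 8, 120668222 to 120674207) had 48.4, 52.0, 57.6, 41.8 and 51.9 CPM unstimulated and 75.0, 68.3, 81.1, 72.7 and 73.5 CPM stimulated, again apart. Its log2 fold change was 0.52 ± 0.12 (adjusted p = 0.010).

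Atp5b (chromosome 10, 128083273 to 128090391) had 192, 212, 215, 187 and 181 CPM unstimulated and 286, 256, 274, 251 and 283 CPM stimulated. The means were 197 ± 15.2 and 270 ± 15.9 CPM, without overlap, and the log2 fold change was 0.42 ± 0.10 (adjusted p = 0.012). Ndufa6 (chromosome 15, 82350140 to 82354322) had 25.6, 30.1, 29.0, 24.6 and 32.5 CPM unstimulated and 52.6, 33.3, 49.5, 38.2 and 37.7 CPM stimulated. The lowest stimulated library was just above the highest unstimulated one, and the log2 fold change was 0.54 ± 0.17 (adjusted p = 0.038). Uqcrc1 (chromosome 9, 108936633 to 108949623) went the other way, from 51.4, 49.9, 47.6, 43.9 and 46.8 CPM unstimulated to 40.3, 33.5, 38.6, 34.2 and 28.7 CPM stimulated, without overlap. Its log2 fold change was -0.49 ± 0.13 (adjusted p = 0.023). The call of Ndufa6 was lost on leaving out unstimulated replicate 30, 31, 32 or 33 or stimulated replicate 36 or 38, and that of Uqcrc1 on leaving out unstimulated replicate 30 or 31 or stimulated replicate 37 or 39. The number of members that fell was 0 without unstimulated replicate 30 or 31 or stimulated replicate 37, 2 without unstimulated replicate 34 or stimulated replicate 38, and 3 without stimulated replicate 39 or 40. Of all genes, 4 to 6.78% fell in these fits.

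**Figure D3:**
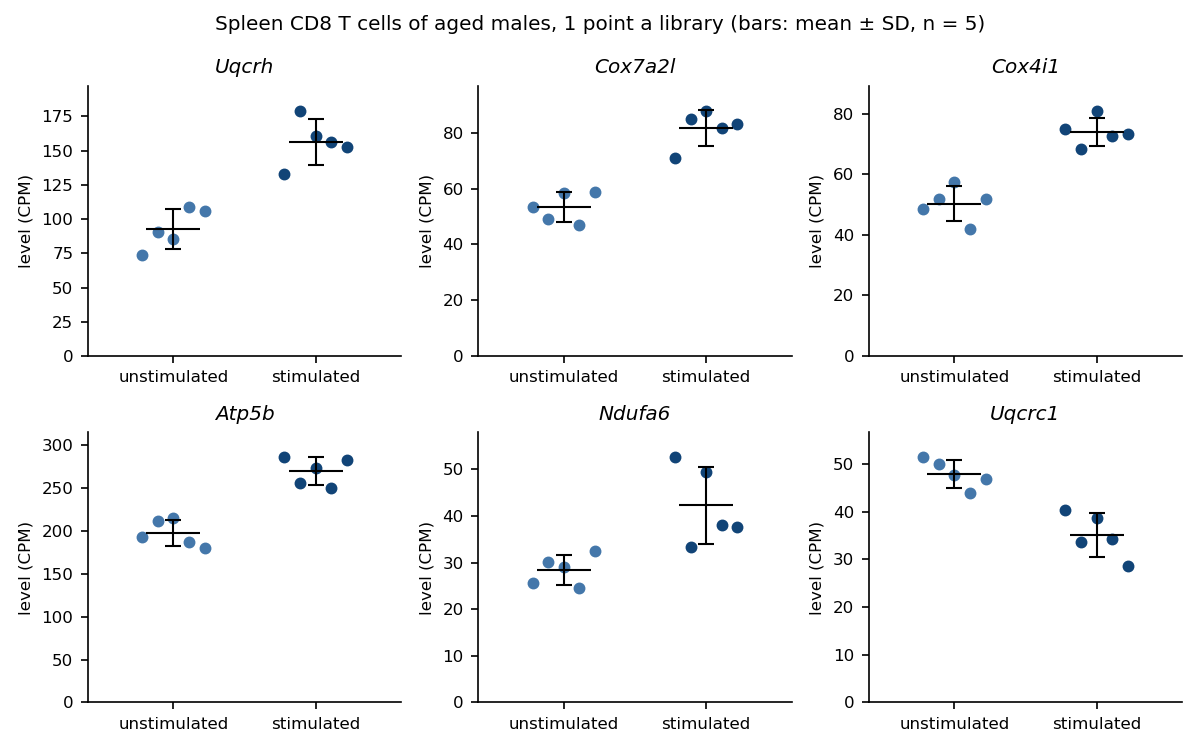
CPM of the 6 members past the threshold in each spleen library, unstimulated and stimulated, with the mean and SD of each group (n = 5). For all 6 the groups are apart, higher after stimulation for Uqcrh, Cox7a2l, Cox4i1, Atp5b and Ndufa6 and lower for Uqcrc1; these CPM use TMM factors, and without them 4 of the 5 rises turn to a lower value.

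The TMM factors were 1.63 to 1.76 in the unstimulated spleen libraries and 0.90 to 1.12 in the stimulated ones, so they carry much of the comparison. With library totals and no factor, 0 members were higher and 46 of 75 lower, and 4.71% of all genes were called higher and 39.4% lower. The all-gene median then moved from -0.07 to -0.73 and the members' median from -0.22 to -0.87. On that scale Cox7a2l was at -0.08 (adjusted p = 0.65), Cox4i1 at -0.13 (0.45), Ndufa6 at -0.10 (0.66) and Atp5b at -0.24 (0.081), all reversed, and Uqcrh at 0.06 (0.75). Uqcrc1 was lower on both, at -1.13 (adjusted p = 0.00030). Relative to the median of all genes the values hardly moved: 0.79 with factors and 0.78 without for Uqcrh, 0.65 and 0.65 for Cox7a2l, 0.60 and 0.60 for Cox4i1, 0.61 and 0.62 for Ndufa6, 0.49 and 0.48 for Atp5b, and -0.41 and -0.41 for Uqcrc1. A change of scaling shifts the values of all genes nearly alike, so these distances could hardly move and are no separate support. The absolute direction of Cox7a2l, Cox4i1, Ndufa6 and Atp5b depended on the scaling.

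By complex, the members' values differed in centre on the TMM scale. The 36 tested complex I genes had a median log2 fold change of -0.29, with 30 of them below 0. Above 0 were 16.7% of these genes and 45.7% of all genes. All 4 complex II genes were below 0 (median -0.40): Sdhc -0.81, Sdhb -0.48, Sdhd -0.32 and Sdha -0.26, the last at 91.0 against 106 CPM, none past the threshold. The medians of complexes III, IV and V were -0.13 (8 tested), 0.06 (12 tested) and -0.00 (15 tested). Without factors, 24 of 36, 4 of 4, 4 of 8, 5 of 12 and 9 of 15 genes of complexes I to V were lower. Summed CD8 T cell markers were 1456 to 1797 CPM unstimulated and 921 to 1846 CPM stimulated, B cell markers (5 of 5 with counts) 128 to 414 and 161 to 352 CPM, and microglia and macrophage markers 195 to 237 and 117 to 177 CPM, the last without overlap and with P2ry12, C1qc and Tmem119 at 0 after stimulation. Their part in the members' values was not tested.

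Some members stood close to the threshold. Cox6a1 had -0.72 (adjusted p = 0.0502, 8.08 CPM stimulated against 12.98), and Atp5j2, subunit f of the ATP synthase, -0.64 (adjusted p = 0.0516, 12.6 against 19.1). Ndufa4 had -1.05 (adjusted p = 0.077, 10.3 against 20.7 CPM). Atp5a1 and Cox6c had values of -0.00 each, and Atp5h, the most abundant member, had 546 against 470 CPM (0.18). In 5 members every stimulated library was above every unstimulated one, and in 4 (Ndufc1, Uqcrc1, Atp5j2 and Atp5f1) below, where 10.9% and 6.1% of all genes were so.

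**Figure D4:**
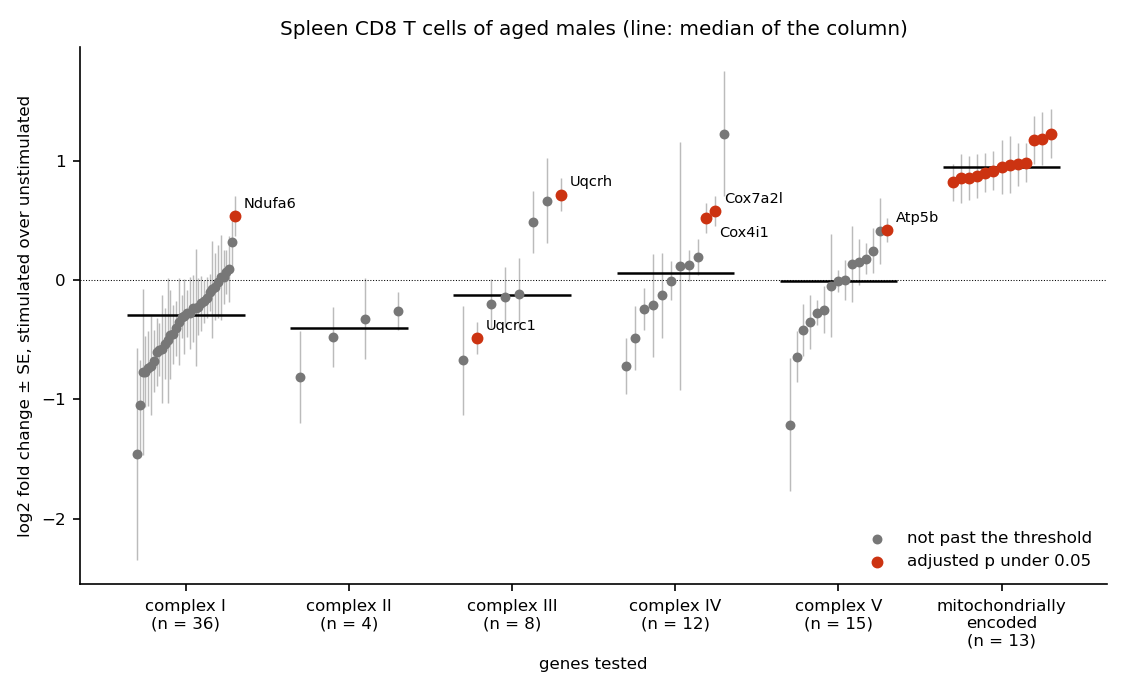
Log2 fold change (stimulated over unstimulated spleen, TMM scale) with its SE for each tested member by complex and for the 13 mitochondrially encoded subunits; red points passed an adjusted p of 0.05 and black lines are medians. The members scatter around a median of -0.22, with 53 of 75 below 0, beside 45.7% of all genes above 0. The 13 mitochondrially encoded genes lie between 0.82 and 1.23. Without TMM factors the members' median was -0.87 and that of the 13 genes 0.27.

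Other genes of the pathway were taken as lists. The 13 subunits encoded in the mitochondrial genome all rose in stimulated spleen on the TMM scale (median 0.95), led by mt-Atp6 (1.23, 11296 ± 3984 against 4714 ± 583 CPM) and mt-Nd2 (1.19, 2470 against 1062 CPM). Without factors all 13 were still above 0 (median 0.27) and 4 passed, mt-Atp6 at 0.54 (adjusted p = 0.015) and mt-Nd2 at 0.50 (adjusted p = 0.030) among them. Of 13 complex I assembly factors 2 fell, Tmem186 (-1.78, adjusted p = 0.0095) and Tmem126b (-1.22 ± 0.34, adjusted p = 0.023), and 6 were lower without factors. Of 22 complex IV assembly genes 1 fell, Lrpprc, which stabilises mitochondrial mRNA (-0.81 ± 0.13, adjusted p = 0.0011, 32.6 against 55.9 CPM), and 5 were lower without factors. None of the 2, 5 and 3 tested assembly factors of complexes II, III and V passed with factors, and 0, 1 and 1 were lower without.

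Of 10 carriers of electrons, phosphate and ADP, 2 rose. They were Slc25a3, the phosphate carrier (0.53, adjusted p = 0.020, 82.5 against 55.8 CPM), and Slc25a5, an ADP/ATP carrier (0.49, adjusted p = 0.037, 156 against 108 CPM). Both were below 0 without factors (-0.14 and -0.18), where 3 of the 10 carriers were lower. Of 20 protein import genes 3 rose, the chaperone genes Hspd1 (1.19), Hspa9 (0.92) and Hspe1 (0.72), and without factors 1 was higher and 6 lower. Of 14 regulators of mitochondrial biogenesis, Myc (4.75, 719 ± 443 against 26.3 ± 6.40 CPM) and Gabpb1, a GABP subunit (1.94, 48.4 against 12.4 CPM), rose, and Polrmt, the mitochondrial RNA polymerase, fell (-1.51, adjusted p = 0.047). Without factors 2 regulators were higher and 8 lower. The call of Polrmt was lost without any of the 5 unstimulated replicates and without stimulated replicate 36, 38, 39 or 40, that of Slc25a5 without any unstimulated replicate and without stimulated replicate 36 or 37, that of Slc25a3 without unstimulated replicate 31 or 34, and that of Tmem126b without unstimulated replicate 30, 32 or 33 or stimulated replicate 36. None of 14 genes of the tricarboxylic acid cycle, which feeds the chain, passed with factors, and 12 were lower without.

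Brain and spleen were compared in unstimulated cells of aged males. Of 74 members tested 1 was higher in brain and 0 lower, where 3.35% of all genes were called higher and 4.02% lower. The member was Atp5h (chromosome 11, 115415689 to 115419962), with 2010, 2347, 1390, 1009, 692 and 637 CPM in brain replicates 7 to 12 and 461, 445, 459, 530 and 457 CPM in spleen replicates 30 to 34. Every brain library was above every spleen library, by a wide margin in some and a narrow one in others. The log2 fold change was 1.32 ± 0.29 (adjusted p = 0.0094). Without TMM factors it was 0.73 (adjusted p = 0.19), and the call was also lost in a fit of all 35 libraries (adjusted p = 0.707) and where at least 10 counts were required in each library (adjusted p = 0.065). The number of higher members was 2 without brain replicate 9, 11 or 12 and 3 without replicate 7 or 8, and 2 were lower without replicate 12. Of all genes, 3.58 to 4.43% were higher in these fits, and 4.94% were lower without replicate 12.

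The other members lay on either side. With factors 75.7% of all tested members and 60.9% of all genes were above 0. The members' median was 0.49 and that of all genes 0.31, with factors; without them the values were -0.07 and -0.24. Sdha, at 181, 374, 274, 268, 133 and 177 CPM in brain and 106 ± 8.93 CPM in spleen, had 0.95 (adjusted p = 0.059). Atp5b had 415 against 197 CPM (0.89, adjusted p = 0.060). In 7 members (Ndufa13, Ndufa6, Sdha, Cox5b, Atp5a1, Atp5c1 and Atp5h) every brain library was above every spleen library, and in 2 (Ndufa2 and Cox7a2) below, where 4.48% and 6.5% of all genes were so. With factors 27 of 36 complex I genes were above 0, 3 of 4 of complex II, 5 of 8 of complex III, 10 of 11 of complex IV and 11 of 15 of complex V, and without them 13, 2, 4, 6 and 8. Summed microglia markers were 166 to 906 CPM in brain and 195 to 237 CPM in spleen, B cell markers 0.381 to 28.0 and 128 to 414 CPM, and choroid plexus markers 1.85 to 618 and 0 to 0.116 CPM. Their part in the result was not tested.

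In the same comparison 7 of 13 mitochondrially encoded genes were higher in brain, with mt-Co1 at 1.04 (22445 against 9532.5 CPM) and mt-Cytb at 0.995. Without factors 3 were higher, and these values were 0.47 and 0.44. The import chaperone gene Hspa9 was higher (1.32, 626 ± 312 against 218 ± 16.8 CPM; adjusted p = 0.089 without factors). Timm10, an import chaperone of the intermembrane space, and Coa3, a complex IV assembly factor, were lower. They had 0 counts in all 6 brain libraries against means of 1.42 and 2.91 CPM in spleen. Both passed the low-count filter through spleen alone, so they could only be called lower. No member of the lists of complex I, II, III and V assembly, carriers, regulators and the tricarboxylic acid cycle passed.

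Aged and young male brain were compared without stimulation. None of 70 members passed in either direction, and of all genes 0.0% were called higher and 0.0% lower. An unadjusted p under 0.05 was seen for 1 member and 374 genes, and DESeq2 called 72 genes, none a member. The member was Atp5j2, with 95.9, 160, 43.9, 18.4 and 19.2 CPM in young replicates 2 to 6 and 30.4, 0.118, 0.265, 0.333, 7.34 and 10.8 CPM in aged replicates 7 to 12. The groups overlapped through aged replicate 7. Its log2 fold change was -2.93 ± 1.37 (adjusted p = 0.99). Atp5l, subunit g of the ATP synthase, had the highest value among members of at least 20 CPM, 2.72, from 152 ± 206 against 22.3 ± 35.5 CPM, where the SDs exceed the means. The members' median of -0.04 was close to the -0.08 of all genes. On simulated counts this comparison recovered 6 of 100 genes changed by a log2 fold of 3 and 0 of 100 changed by 1. The lack of calls therefore does not show that the members were unchanged with age.

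Aged females and aged males were compared in the same way. None of 71 members passed, where 0.0% of all genes were called higher and 0.15% lower in females. Of the members 50 had a value below 0 (median -0.56, all genes -0.28). Above 0 were 29.6% of the members and 38.9% of all genes. Without factors the medians were -0.21 and 0.04. Cox7a2l had 25.9, 8.03, 8.98, 3.63 and 7.47 CPM in female replicates 13 to 17, and 43.9 to 85.7 CPM in the 6 male libraries, without overlap. Its log2 fold change was -2.45 with an unadjusted p under 0.05, and adjusted p-values of the members were at least 0.43. An unadjusted p under 0.05 was seen for 4 members and 365 genes, and DESeq2 called 1 member lower, beside 0.115% of all genes. The other 3 such members were Atp5c1 (-1.66), Atp5h (-1.16) and Cox7a2 (3.48). Ndufa5 had the lowest value among members of at least 20 CPM (-2.54, 5.11 against 33.6 CPM) and Atp5j2 the highest (2.74). On simulated counts this comparison recovered 13 of 100 genes changed by a log2 fold of 3 and 0 of 100 changed by 1, so the lack of calls does not show equal levels.

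Stimulation of aged male brain cells was read from the sparsest libraries. Of 65 members tested 35 were lower after stimulation and 0 higher, where 36.4% of all genes were called lower and 1.75% higher. With replicate 19 as the only stimulated library, assumed to vary like the others, 11 of 77 members tested were lower, beside 7.33% of all genes in that fit. Of the 35, 27 had 0 counts in all 4 stimulated libraries. These 27 passed the low-count filter through the unstimulated group alone, so they could only be called lower. Members at 0 were 41.5% of those tested, and 29.0% of all genes tested were so. The fitted median was -7.94 (all genes -2.62). Fitted values of genes at 0 are no bound, and with such genes set at a floor of 3 counts per library the medians were -3.48 and -2.12. The fitted median of the members was -4.35, -5.79, -4.57, -4.59 and -4.44 without unstimulated replicate 7, 9, 10, 11 and 12. Summed markers of CD8 T cells moved the same way (median 283 against 3056 CPM), and all 6 neuron markers were at 0. Microglia and macrophage markers were 0 to 78.3 CPM after stimulation and 166 to 906 before, without overlap, with 7 of 12 at 0 after it. Choroid plexus markers had 0 to 1157 CPM after stimulation and 1.85 to 618 before, all of it from Ttr after stimulation with Folr1 and Kl at 0, and oligodendrocyte markers 54.7 to 314 and 38.6 to 274 with Mag and Mog at 0 after stimulation. The part of these in the result was not tested.

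By complex, the lower members were 21 of 30 tested genes of complex I, 3 of 4 of complex II, 2 of 7 of complex III, 3 of 11 of complex IV and 6 of 13 of complex V. Uqcrb (chromosome 13, 66900617 to 66905378) had 214, 71.1, 283, 93.7, 109 and 302 CPM unstimulated and 0 counts in all 4 stimulated libraries, at least 111-fold lower against the floor. Atp5l, with 30.9, 552, 156, 145, 0.195 and 29.5 CPM unstimulated, was at least 94.9-fold lower, or at least 45.0-fold without unstimulated replicate 8. Atp5c1, the gamma subunit of the ATP synthase rotor, had 195, 106, 111, 182, 78.8 and 162 CPM unstimulated and was at least 86.8-fold lower. These 3 genes were at 0 in every stimulated male library. With replicate 19 alone Uqcrb and Atp5c1 passed and Atp5l did not (adjusted p = 0.255). Among the others at 0, Cox7b was at least 53.9-fold lower, Atp5k at least 47.6-fold (29.3-fold without unstimulated replicate 12) and Ndufa9 at least 36.9-fold. Sdha had 0.191, 0, 0 and 0 CPM after stimulation.

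Some members had counts near their unstimulated levels in part of the stimulated male libraries. Uqcrh had 70.8, 53.6, 228, 177, 142 and 103 CPM unstimulated and 175, 217, 56.3 and 0 CPM stimulated (-0.14). Cox6c had 42.5, 89.1, 247, 130, 58.0 and 139 CPM unstimulated and 171, 248, 693 and 4.01 CPM stimulated (1.36), which spans the unstimulated range on both sides. Atp5a1 had 359, 231, 631, 299, 299 and 559 CPM unstimulated and 60.1, 48.0, 184 and 517 CPM stimulated (-0.76). None of these passed. Uqcrc2 had counts in 1 of 4 stimulated libraries, and its value of 1.86 rested on 1199 CPM in replicate 20. Cox4i1 was at 18.5, 0, 1.39 and 0 CPM after stimulation (-4.45, adjusted p = 0.054), and Atp5h at 0, 70.6, 942 and 0 CPM (-2.26, adjusted p = 0.29). Of the mitochondrially encoded genes 12 of 13 were higher (median 3.33, and 2.79 without factors, again with 12).

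The same comparison in aged female brain called 4 members. Of 50 tested 4 fell and 0 rose, where 4.17% of all genes were called lower and 1.92% higher. The members' median was -0.37 and that of all genes -0.41, or -1.89 and -1.81 without factors, where 6 members and 7.72% of all genes were lower. In all, 3 members (6.0%) were at 0 in all 5 stimulated libraries, as were 2.36% of all genes. These 3 passed the low-count filter through the unstimulated group alone, so they could only be called lower. Ndufb9, a complex I accessory subunit, had 46.3, 13.8, 119, 53.4 and 7.58 CPM unstimulated and 0 after stimulation, at least 35.4-fold lower (adjusted p = 0.025), or at least 22.3-fold without unstimulated replicate 15 and 53.5-fold without stimulated replicate 27. Ndufa3 had 16.8, 11.1, 12.7, 6.22 and 15.7 CPM and then 0, at least 9.21-fold lower (adjusted p = 0.031), or 13.9-fold without stimulated replicate 27. Sdhc, at 9.54, 3.42, 3.16, 22.8 and 2.70 CPM and then 0, was at least 6.13-fold lower (adjusted p = 0.038), or 3.46-fold without unstimulated replicate 16 and 9.26-fold without stimulated replicate 27. Atp5j, coupling factor 6 of the ATP synthase, had 88.2, 68.3, 114, 89.3 and 22.2 CPM unstimulated and 3.68, 0, 2.02, 0.36 and 0 CPM stimulated, without overlap (-5.78 ± 1.64, adjusted p = 0.04998). The count of 4 became 0 without unstimulated replicate 13, 14, 16 or 17 and 7 without replicate 15, and 2 without stimulated replicate 23, 24, 25 or 27. The number of all genes called lower moved too, from 263 to between 14 and 24 without replicate 13, 14, 16 or 17. Ndufb9 then had fitted values of -11.87 to -11.59 with adjusted p-values of 0.0576 to 0.0647.

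Members at 0 in stimulated male brain were not all so in females, a difference that was not tested. In female brain Uqcrb had 245, 0, 0, 0 and 65.6 CPM unstimulated and 0.283, 359, 0, 9.34 and 4.27 CPM stimulated, so the groups overlapped. Uqcrh had 87.7, 85.7, 14.1, 130 and 96.2 CPM and then 124, 261.6, 158, 92.0 and 224 CPM, which overlapped too. Cox4i1 had 243, 30.3, 63.6, 33.8 and 238 CPM after stimulation. All 13 mitochondrially encoded genes were higher (median 3.69), and 12 passed without factors (median 2.21). Summed CD8 T cell markers were 504 to 2010 CPM after stimulation and 1749 to 2890 CPM before, oligodendrocyte markers 158 to 435 and 27.4 to 69.4 CPM, and microglia and macrophage markers 0 to 294 and 163 to 258 CPM. Choroid plexus markers were 114 to 666 CPM after stimulation and 0 to 5.77 before, without overlap, with Folr1 at 0 in both and Kl at 0 before. Their part in the result was not tested.

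Stimulated cells of brain and spleen from aged males were compared as well. Of 72 members 41 were lower in brain and 0 higher, where 46.7% of all genes were called lower and 1.82% higher. With replicate 19 as the only brain library 58 of 77 were lower and 4 higher, beside 50.7% and 10.2% of all genes in that fit, and without stimulated brain replicate 22 1 was higher. In all 4 brain libraries 33 members (45.8%) were at 0, as were 37.7% of all genes. These 33 passed the low-count filter through spleen alone, so they could only be called lower, and all were. The medians with such genes at the floor were -2.10 for members and -1.49 for all genes. Uqcrb was at least 54.2-fold lower in brain, Atp5c1 at least 47.1-fold and Atp5l at least 33.1-fold. By complex, 25 of 35, 3 of 4, 4 of 8, 3 of 11 and 6 of 14 tested genes were lower.

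The difference between the responses of brain and spleen to stimulation was tested as an interaction over 4 groups of aged males. Of 76 members 42 had a lower response in brain and 1 a higher one, where 35.7% and 2.1% of all genes did. With replicate 19 as the only stimulated brain library 31 of 78 were lower and 1 higher, beside 18.6% and 1.81% of all genes in that fit. The fitted median was -7.07 (all genes -4.04). Uqcrb, Atp5c1 and Atp5l led the lower side with fitted values of -14.03, -13.96 and -14.36, which are no bounds because brain was at 0. The higher one was Cox6b2 (6.74 ± 1.99, adjusted p = 0.0137), which had counts in a single brain library, stimulated replicate 19 at 4.01 CPM, and at most 1.69 CPM in spleen; without that library 0 members were higher, and without unstimulated brain replicate 12 2 were. This contrast shares its libraries with the comparisons above, so it is not a separate observation.

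**Figure D5:**
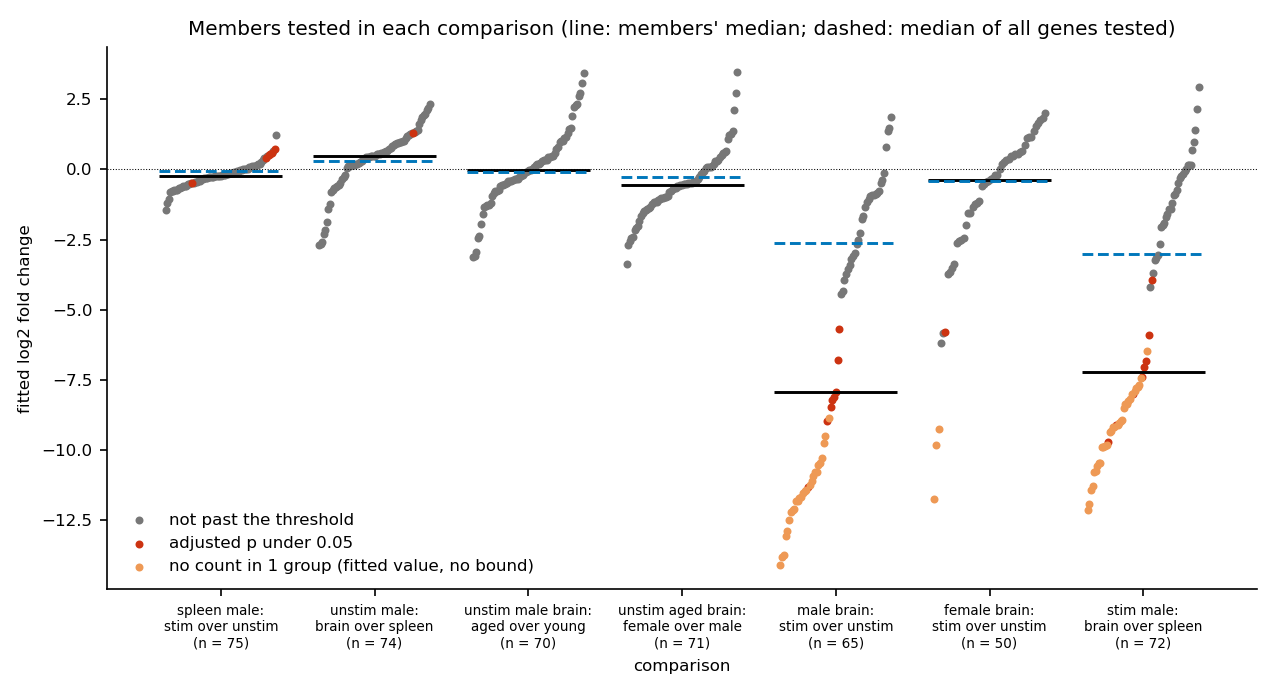
Fitted log2 fold change of each tested member in 7 comparisons, with the members' median (line) and the median of all genes (dashed); red points passed an adjusted p of 0.05 and orange points had no count in 1 of the groups. Spleen stimulation values are tight around a median of -0.22, while male brain stimulation and the stimulated tissues carry many genes without a count in brain, whose fitted values are no bounds.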

How the data were processed

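RNA of sorted CD8 T cells was measured in 35 libraries, grouped by the sample labels. Per the submitters' processing notes, reads were processed with Bowtie2 2.2.0 and RSEM 1.2.12 on mm10; neither the annotation nor strand use is given in the sources used here. RSEM divides reads among similar genes, so copies and pseudogenes have uncertain values, and without strand so do overlapping genes. Per the file headers, the authors deposited for each library expected counts, TPM values and FPKM values. The deposited table of the series holds whole-number counts within 0.5 of the expected counts. These counts entered all tests, TPM served to compare genes, and FPKM was not used. Members were read by symbol; 359 table entries share a symbol with another.

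In R 4.3.3, edgeR 4.0.16 was used with filterByExpr (minimum count 10), TMM factors and the quasi-likelihood test (two-sided) on the groups compared, with Benjamini-Hochberg adjustment over all genes tested and a threshold of 0.05. CPM use TMM factors over all 35 libraries, so a ratio of CPM means departs from the fitted fold by up to 0.21 on the log2 scale. Where a group had 0 counts, folds are bounds against 3 counts per library, for counting error only. Totals were 1.16 to 24.97 M counts; no pair of libraries in a group agreed within sampling noise (the smallest chi-square was 13.0 times its degrees of freedom).

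The members and lists were chosen with earlier results of these data known. The lists were 10 gene groups of 128 genes, 120 of them in the files, and markers of 11 cell types. Genes named in the text were, per complex and direction, up to 3 members past the threshold with at least 5 CPM in spleen stimulation and in unstimulated tissue, up to 3 per direction elsewhere, or with none past it the extremes of at least 20 CPM, up to 2 genes per list and direction, the most abundant member of each complex, isoform sets and complex II. Members near a threshold, without overlap, or prominent in single libraries were named after their values were seen. Alternatives were DESeq2 1.42.0 (size factors and test), limma 3.58.1 voom, other low-count filters, rounded expected counts, no mitochondrially encoded genes, a fit of all 35 libraries, hyphenated titles only, and each library left out. Library totals without factors, at least 10 counts in every library, and replicate 19 alone were added after seeing the data. On simulated counts, 100 genes were changed by a log2 fold of 3 and 100 by 1. Of the first, the test recovered 81 in spleen stimulation, 28 between unstimulated tissues, 6 for age, 13 for sex and 0 in the other 4 comparisons. Of those changed by 1, it recovered 34, 1, 0 and 0 in the first 4 of these. Only these 200 genes were changed, so recovery was not tested for data where many genes change, as in stimulated male brain. Promoters are from RefSeq (GRCm38.p6) and positions from GENCODE M21 (GRCm38). Tables and figures were made with matplotlib 3.10.9, scipy 1.17.1, pandas 2.3.3 and numpy 2.4.6 in Python 3.11.15.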

Additional observations from a re-analysis of the deposited data

Results flagged for a closer look

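In 24 of 153 groups of libraries examined, 1 library stood far from the others of its group, by the gap to its nearest neighbour over the group's range. Chance flags about 1 in 20 groups of normally distributed values; many of these values are 0 or skewed, and their own rate was not tested. In stimulated male brain, Ndufa6 at 0.572 CPM, Sdha at 0.191 CPM, Atp5j at 9.16 CPM and Cox4i1 at 18.5 CPM were set by replicate 19, against 0 elsewhere for the first 3 and at most 1.39 CPM for Cox4i1. Where the other libraries are at 0, any count gives a flag. Ndufa6 rested on 3 counts and Sdha on 1. Replicate 21 was high in Cox7a2l (0.465 CPM from 1 count, others 0), Atp5h (942 CPM, next 70.6) and the complex II sum (21.4 CPM, next 0.191). Replicate 22 was high in Uqcrc1 (15.05 CPM, others 0) and replicate 20 in the complex III sum (1418 CPM, next 194). In stimulated female brain, replicate 24 was high in Uqcrb (359 CPM, next 9.34) and Atp5c1 (392 CPM, next 13.2), replicate 23 in Atp5a1 (654 CPM, next 192) and replicate 26 in the complex II sum (209 CPM, next 23.2).

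In unstimulated female brain, replicate 13 was high in Uqcrb (245 CPM, next 65.6) and Cox7a2l (25.9 CPM, next 8.98), and replicate 16 in Atp5l (108 CPM, next 16.1). In aged male brain, replicate 8 was high in Atp5l (552 CPM, next 156) and low in members detected (62, next 71). In young male brain, replicate 3 was high in the complex I sum (2033 CPM, next 1397). In unstimulated spleen, replicate 33 was high in Ndufb9 (42.6 CPM, next 30.4) and Atp5h (530 CPM, next 461) and low in Uqcrb (79.0 CPM, next 94.5), and replicate 34 was high in the complex III sum (342 CPM, next 318). In stimulated spleen, replicate 36 was high in Ndufb9 (47.1 CPM, next 23.5).

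The response to stimulation differed between brain and spleen of aged males by the interaction test for Uqcrb (-14.03), Atp5c1 (-13.96), Atp5l (-14.36) and Cox6b2 (6.74). These are fitted log2 values and no bounds. The first 3 genes had 0 counts in all 4 stimulated brain libraries, and Cox6b2 had counts in 1 brain library.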

How the results depend on the processing

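No paired analysis was possible because each replicate number in the labels belongs to 1 group only. Numbers of members past the threshold moved as follows. In spleen stimulation, the 5 higher became 2 without a low-count filter and 0 in the fit of all 35 libraries and with library totals. Of all genes, 5.45%, 0.409% and 4.71% were called higher in these fits. The 1 lower became 5 with DESeq2, 3 with voom, 0 without the filter and in the fit of all libraries, 5 with at least 10 counts in every library and 46 with library totals. The shares of all genes called lower were 8.85%, 7.24%, 2.69%, 0%, 10.2% and 39.4%, in that order. Between unstimulated tissues, the 1 higher became 3 with DESeq2, 4 with voom and 0 in the fit of all libraries, with at least 10 counts and with totals. All genes called higher were 5.53%, 3.85%, 0.594%, 4.63% and 1.26%, in that order. The 0 lower became 1 with DESeq2, 6 with voom, and 1 without the filter and in the fit of all libraries. Beside these, 5.02%, 10.8%, 6.52% and 4.35% of all genes were called lower. For sex, DESeq2 called 1 lower, beside 0.115% of all genes. In male brain stimulation 1 was higher without the filter and in the fit of all libraries, and the 35 lower became 0 with at least 10 counts (1 member tested) and 11 with replicate 19 alone. In female brain the 4 lower became 7 with DESeq2, 13 with voom, 21 in the fit of all libraries, 1 with hyphenated titles only and 0 with at least 10 counts (5 tested). The share of all genes called lower moved too, to 9.69%, 17.9%, 15.9%, 0.982% and 4.89% in that order. Between stimulated tissues 1 was higher with DESeq2, beside 3.31% of all genes. The 41 lower became 0 with at least 10 counts (1 tested), beside 7.8% of all genes. The interaction's 1 higher became 0 with voom and with at least 10 counts, beside 0.751% and 17% of all genes. Its 42 lower became 0 with at least 10 counts (1 tested), beside 15.6% of all genes. The cause of these moves was not tested, other than the fewer members tested.

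Leaving out each library in turn gave 4 to 5 higher and 0 to 3 lower in spleen stimulation, 1 to 3 and 0 to 2 between unstimulated tissues, 0 and 0 for age and for sex, 0 and 25 to 37 in male brain, 0 and 0 to 7 in female brain, 0 to 1 and 37 to 50 between stimulated tissues, and 0 to 2 and 40 to 48 for the interaction. All genes called moved too. They were 9.69 to 13.6% higher and 4 to 6.78% lower in spleen stimulation, and 2.22 to 4.43% and 3.77 to 5.2% between unstimulated tissues. Lower were 24.2 to 34.6% in male brain and 0.207 to 6.61% in female brain. Between stimulated tissues 1.32 to 2.6% were higher and 40.9 to 56.7% lower, and for the interaction 1.7 to 2.45% and 32 to 36.9%. With library totals in spleen stimulation Atp5b (-0.24), Cox4i1 (-0.13), Cox7a2l (-0.076), Ndufa6 (-0.10), Slc25a3 (-0.14) and Slc25a5 (-0.18) turned direction. Of the other values of named genes under the alternatives, 90 kept direction and lost the threshold, and 670 were labelled as unchanged in direction and call. The 670 take in any value without an adjusted p and the named genes for age and sex, which had no call to lose. They also take in the rounded expected counts, which gave the same numbers of calls as the main fit. They are therefore no measure of stability. In stimulated brain the spread between replicates limits what can be seen. Library totals there are low too. At equal nuclear counts the median numbers of members detected were lowest there, as were those of all genes. Thinning evens the counts only and cannot even out the RNA that went into a library. The part of low totals in the calls was not tested.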
